A study of Mus musculus with 36 samples.

Results

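The 39 genes described here encode the glutamate receptors of hippocampal synapses and the proteins that hold and regulate them in the postsynaptic density. They were chosen by name among the 55421 genes of the deposited count table. The list holds 4 AMPA receptor subunits, 5 kainate receptor subunits, 6 NMDA receptor subunits, 6 metabotropic glutamate receptors, 6 auxiliary subunits of AMPA receptors, 4 MAGUK scaffolds, 5 Shank and Dlgap scaffolds, and Camk2a, Camk2b and Nrgn. Each name matched 1 gene identifier, and all 39 genes passed the filter on low counts, which kept 19478 genes.

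RNA was sequenced from slices of the right hippocampus of 18 mice, aged 16 months at the end, which had been dosed by oral gavage for the last 3 months. Wild-type mice were C57BL/6. T41B mice (Thy1-hAPPLond/Swe, Line 41) carry human APP, bearing London and Swedish mutations, in a Thy1 cassette, which drives the transgene mainly in neurons, and they come from a single transgenic line. Both genotypes received vehicle or BD10-2, a small molecule that partially activates the neurotrophin receptors TrkB and TrkC. A slice was given theta-burst stimulation (TBS), applied 3 times, each time as 10 bursts spaced 200 ms apart in which 4 stimuli followed each other at 100 Hz, or a sham procedure, and was frozen at once. Sham and stimulated groups each held 4 vehicle-treated mice of either genotype, 3 wild-type mice given BD10-2 and 5 T41B mice given BD10-2. Both slices were sequenced for 14 mice.

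AMPA receptors carry the fast current of excitatory synapses, NMDA receptors admit calcium when the cell is depolarized, and kainate receptors act on both sides of the synapse. Metabotropic receptors signal through G proteins, and most of those listed here sit on presynaptic terminals. MAGUK, Shank and Dlgap proteins form the scaffold to which the receptors are anchored, and the calcium-dependent kinase CaMKII and its calmodulin store neurogranin act in long-term potentiation, which TBS is used to induce in hippocampal slices.

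Libraries held 11597555 to 28125842 expected counts (median 18082415). Thy1, which marks the transgene cassette, ranged from 253.4 to 403.1 CPM (read counts scaled to library size) in wild-type slices and from 1033.8 to 2505.5 CPM in T41B slices, without overlap. App, counted on the mouse gene, ranged from 1022.7 to 1425.4 CPM and from 953.2 to 1193.3 CPM, with overlap. Neuronal markers were present throughout: the summed level of Rbfox3, Snap25, Syn1, Eno2 and Nefl lay between 1440.7 and 2638.7 CPM in all slices. In 6 slices of 4 vehicle-treated mice the choroid plexus genes Ttr, Folr1, Kl and Clic6 summed to 112.3 to 1187.4 CPM, against at most 28.2 CPM in the others. These were the stimulated slices of wild-type Mouse1509 and Mouse1513 and both slices of T41B Mouse1551 and Mouse1553. Results from vehicle groups are therefore also given without these 6 slices, an alternative chosen after seeing the data. In whole slices, fewer cells of a type and less RNA per cell cannot be told apart.

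Levels per length of exon (CPM per kb) spanned a wide range in sham slices of vehicle-treated wild-type mice. Camk2a, the alpha subunit of CaMKII, was highest at 488.2 ± 32.9 CPM per kb (SD, n = 4), followed by Nrgn at 419.1 ± 38.8 (SD, n = 4). These 2 overlapped within 1 SD and stood well above the next gene, the scaffold Shank1, at 169.3 ± 30 (SD, n = 4). Gria1, the most abundant AMPA receptor subunit, stood at 162.3 ± 7.45, and Cnih2, an AMPA receptor auxiliary subunit, at 156.6 ± 22.5 (SD, n = 4). Shank1, Gria1 and Cnih2 did not differ beyond their spread. Among NMDA receptor subunits the order on this scale was Grin2b (68.7 ± 5.33), Grin2a (55.4 ± 6.44) and the obligatory subunit Grin1 (52.8 ± 3.85), of which the last pair overlapped within 1 SD (n = 4 each). Exons of genes on the opposite strand overlap those of Grin2b and Grin1. The lowest members were Grik1 (2.14 ± 0.350), Grin2d (1.88 ± 0.463) and the metabotropic receptor Grm8 (1.83 ± 0.446), which did not differ beyond their spread (SD, n = 4).

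**Figure D1:**
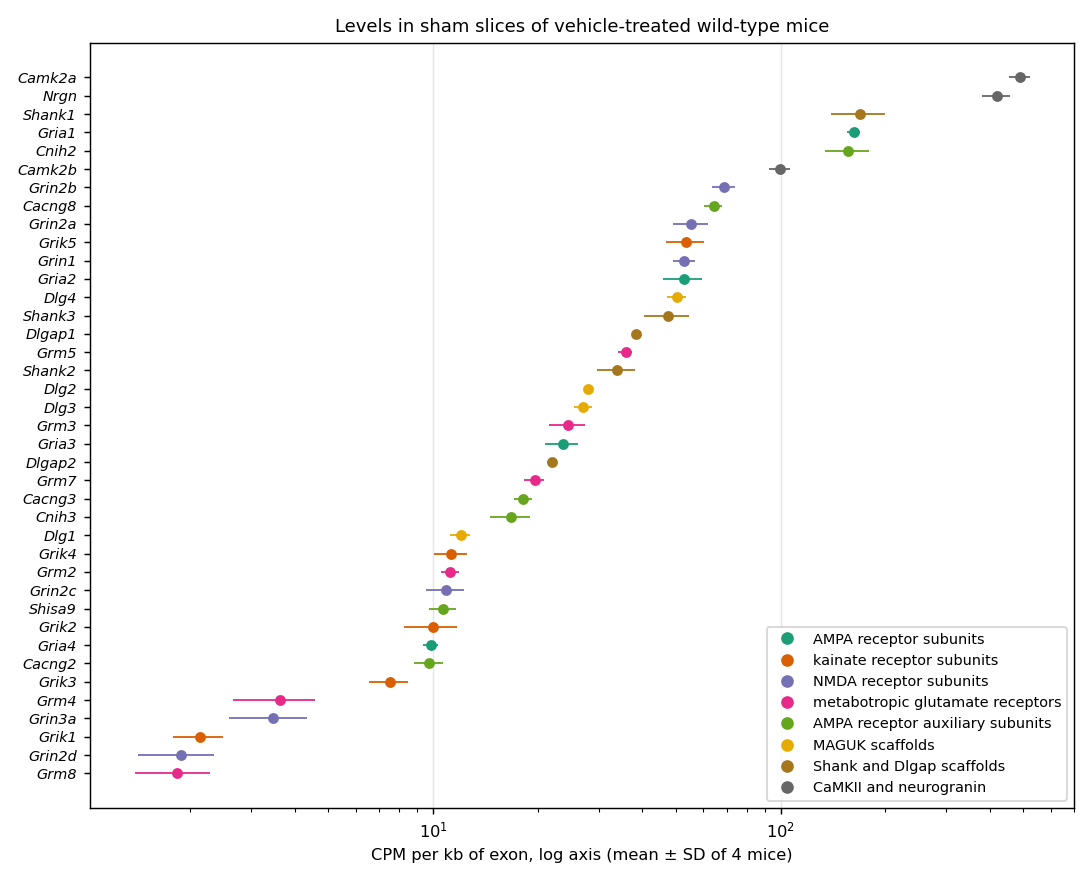
Level of each of the 39 genes in sham slices of vehicle-treated wild-type mice, in CPM per kb of exon on a log axis; points are means and bars are SD over 4 mice, coloured by role. Camk2a and Nrgn lie at 488.2 and 419.1 CPM per kb, and Grm8, Grin2d and Grik1 near 2 CPM per kb.

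Stimulated slices were compared with sham slices in each combination of genotype and treatment, which asks which transcripts differ straight after TBS. The threshold for a call was 0.05 on the edgeR adjusted p. Unless another fit is named, a call comes from the fit of all 8 groups, which leaves slices unpaired. All members called in that fit were lower in the stimulated slices. In vehicle-treated wild-type mice 3 of 39 members were called lower (7.7%), where 4.1% of all genes were called lower. In vehicle-treated T41B mice 7 of 39 were lower (17.9%, against 9.83% of all genes). With BD10-2, 2 of 39 were lower in wild-type mice (5.1%, against 2.58%) and 10 of 39 in T41B mice (25.6%, against 9.54%). No member was called higher in this unpaired edgeR fit, where 8.21%, 11.7%, 6.29% and 13.3% of all genes were, in the same order. In either direction this fit called 12.3%, 21.6%, 8.87% and 22.9% of all genes. DESeq2 called 1 member higher, Grin2c in vehicle-treated T41B mice, and 2 members there and 0 in each of the other comparisons were higher at an unadjusted p under 0.05. In either direction that p was reached by 11, 11, 5 and 16 members, where 26.3%, 33.7%, 22.6% and 34.4% of all genes reached it.

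The direction of the log2 fold change was shared more widely than the calls. It was below 0 for 30, 28, 26 and 30 members in the 4 comparisons, where 51.3%, 56.1%, 51.1% and 55.4% of all genes were. All stimulated slices lay below all sham slices for 7, 3, 6 and 7 members (6.72%, 8.71%, 15.2% and 5.93% of all genes) and above them for 0, 5, 3 and 0 members (9.33%, 11.7%, 17.7% and 9.35%). The log2 fold change was below 0 in all 4 comparisons for 25 of 39 members (64.1%), against 30.8% of all genes, and the 4 comparisons have no mouse in common. The members' median log2 fold change was -0.13 in either genotype with vehicle, and with BD10-2 it was -0.10 in wild-type and -0.17 in T41B mice. The medians over all genes were -0.01, -0.05, -0.01 and -0.04.

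The slices of 1 mouse can be paired. With mouse as a block, edgeR called 10, 12, 0 and 14 members in the 4 comparisons, which included all 3, 7 and 10 of the vehicle wild-type, vehicle T41B and BD10-2 T41B comparisons and neither of the 2 members called in BD10-2-treated wild-type mice, where only 2 mice have both slices. In vehicle-treated T41B mice 4 of the 12 were higher, namely Grin2c, Shank1, Shank3 and Dlgap2; the other blocked calls were lower. With batch as a covariate the counts were 8, 8, 3 and 11. How many of all genes were called in these fits, or with mice or slices left out, is not given here. The members' counts in them thus cannot be set against those of all genes. Leaving out 1 mouse also moved the counts. In vehicle-treated wild-type mice 0 members were called without Mouse1509 or Mouse1513 and 1 without Mouse1524, and in vehicle-treated T41B mice 3 without Mouse1510 or Mouse1553 and 4 without Mouse1579. With BD10-2, 0 were called in wild-type mice without Mouse1565, Mouse1586 or Mouse1590 and 1 without Mouse1571, and 6 in T41B mice without Mouse1564. Without the 6 slices rich in choroid plexus RNA, 5 members were called in vehicle-treated wild-type mice and 0 in vehicle-treated T41B mice, where that left 2 mice.

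**Figure D2:**
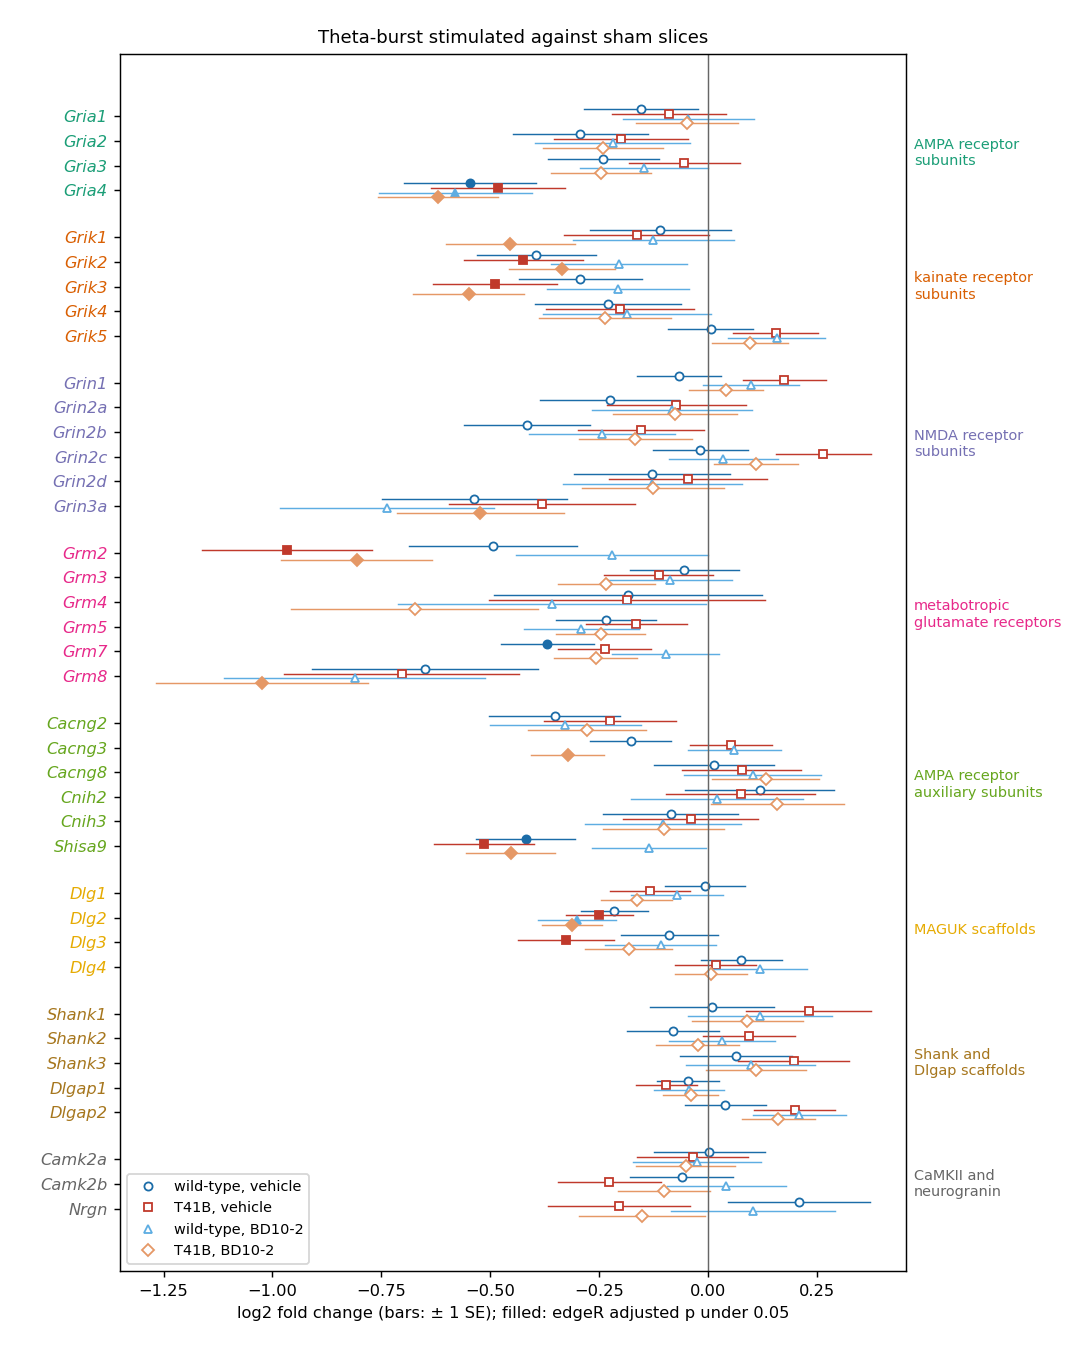
Log2 fold change of stimulated against sham slices (x axis) for the 39 genes (y axis, coloured by role) in the 4 combinations of genotype and treatment; bars are 1 SE and filled points are called at an edgeR adjusted p under 0.05. The filled points lie left of 0, and Gria4 is filled in all 4 comparisons, while no Shank, Dlgap, CaMKII or Nrgn point is filled.

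Among the AMPA receptor subunits, Gria4 (ENSMUSG00000025892, chr9:4417896-4796234, minus strand, GRCm38) fell in each of the 4 comparisons. Exons of Gm23811, on the same strand, overlap those of Gria4. It encodes the least abundant of the AMPA receptor subunits here per length, one used early in development and in interneurons. Under vehicle, wild-type levels were 59.0, 60.0, 63.9 and 65.2 CPM in sham slices and 41.7, 42.4, 42.6 and 43.1 CPM in stimulated slices. The groups did not overlap, and the 4 stimulated values lay close together (log2 fold change -0.55, SE 0.15, edgeR adjusted p = 0.0166). T41B mice on vehicle had Gria4 at 28.7, 38.7, 48.0 and 53.8 CPM in sham and 26.2, 27.3, 32.7 and 34.9 CPM in stimulated slices, which overlapped (log2 fold change -0.48, SE 0.15, edgeR adjusted p = 0.024).

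With BD10-2, Gria4 was 48.1, 50.9 and 68.7 CPM in sham and 29.2, 39.3 and 43.6 CPM in wild-type stimulated slices (log2 fold change -0.58, SE 0.18, edgeR adjusted p = 0.0347). In T41B mice it was 35.1, 36.4, 45.2, 46.6 and 49.8 CPM in sham and 23.8, 25.3, 26.9, 30.1 and 32.5 CPM in stimulated slices (log2 fold change -0.62, SE 0.14, edgeR adjusted p = 0.00119). In both cases every stimulated slice lay below every sham slice. Gria4 was lower in the stimulated slice of 14 of 14 mice with both slices. The call in T41B mice given BD10-2 held in all alternatives and with any mouse left out; the call in vehicle-treated wild-type mice was lost without Mouse1509, Mouse1513 or Mouse1524. The vehicle T41B call was lost when only the groups compared were fitted, without the slices rich in choroid plexus RNA, and without Mouse1510, Mouse1553 or Mouse1579. That in BD10-2-treated wild-type mice was lost without Mouse1565, Mouse1586 or Mouse1590, with the first library of each label, when only the groups compared were fitted, and with mouse as a block.

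The other AMPA receptor subunits were not called after TBS in the fit of all slices without the block. Gria2, whose subunit makes the receptor impermeable to calcium, had log2 fold changes between -0.29 and -0.20, and it was lower in 13 of 14 pairs. Gria1 lay between -0.15 and -0.05 and Gria3 between -0.25 and -0.05 on the log2 scale. With mouse as a block, Gria2 was called in vehicle-treated wild-type mice (edgeR adjusted p = 0.0471), and Gria3 was called there without the choroid-rich slices.

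**Figure D3:**
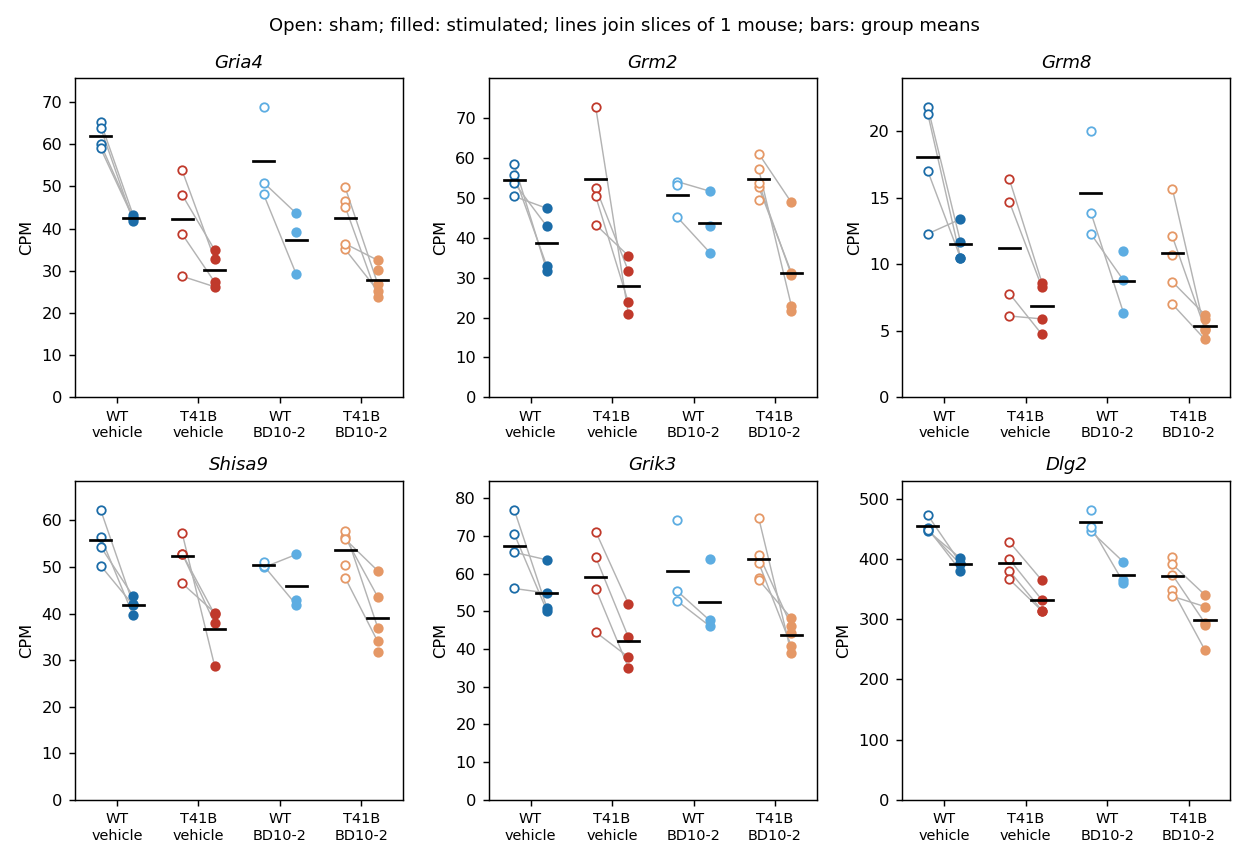
Level in CPM (y axis, from 0) of Gria4, Grm2, Grm8, Shisa9, Grik3 and Dlg2 in each mouse, by genotype and treatment (x axis); open points are sham and filled points stimulated slices, lines join slices of 1 mouse, and bars are group means. The line falls in all 14 mice for Gria4, Grm2, Grik3 and Dlg2 and in 13 of 14 for Grm8 and Shisa9.

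Of the kainate receptor subunits, Grik2 and Grik3 fell in T41B mice under both treatments, and Grik1 in T41B mice given BD10-2. These 3 genes encode pore-forming subunits of kainate receptors. Grik3 (ENSMUSG00000001985, chr4:125490700-125714173, plus strand) was 44.5, 56.0, 64.4 and 71.2 CPM in sham and 35.1, 37.9, 43.2 and 52.1 CPM in stimulated slices of vehicle-treated T41B mice. The groups overlapped (log2 fold change -0.49, SE 0.14, edgeR adjusted p = 0.013). With BD10-2, Grik3 was 58.4, 58.8, 62.9, 65.1 and 74.8 CPM in sham and 38.9, 40.8, 44.2, 46.2 and 48.2 CPM in stimulated T41B slices, without overlap (log2 fold change -0.55, SE 0.13, edgeR adjusted p = 0.00177). In wild-type mice Grik3 had 56.1, 65.7, 70.6 and 77.0 CPM in sham and 50.2, 51.0, 54.9 and 63.7 CPM in stimulated vehicle slices, and 52.8, 55.4 and 74.3 against 46.1, 47.6 and 64.0 CPM with BD10-2. Neither wild-type difference was called (edgeR adjusted p = 0.182 and 0.492), but the stimulated slice was lower in each of the 14 pairs. The vehicle T41B call of Grik3 was lost when only the groups compared were fitted, without the choroid-rich slices, and without Mouse1510 or Mouse1553.

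Grik2 went from 111.6 ± 19.6 to 83.1 ± 6.52 CPM in vehicle-treated T41B mice (SD, n = 4; log2 fold change -0.42, edgeR adjusted p = 0.0248) and from 111.2 ± 8.32 to 88.0 ± 13.9 CPM with BD10-2 (SD, n = 5; -0.34, edgeR adjusted p = 0.0454). It was lower in 14 of 14 pairs. In vehicle-treated wild-type mice Grik2 was called with mouse as a block (log2 fold change -0.40, edgeR adjusted p = 0.00409), with DESeq2, with batch as a covariate and without the choroid-rich slices. The vehicle T41B call of Grik2 was lost when only the groups compared were fitted, without the choroid-rich slices, and without Mouse1510, Mouse1551 or Mouse1579. Its BD10-2 call was lost with DESeq2, RLE scaling, no filter or the first library of each label, and with any mouse left out except Mouse1592. The BD10-2 call of Grik1 (log2 fold change -0.45, edgeR adjusted p = 0.0253) was lost with the first library of each label and without Mouse1557, Mouse1563, Mouse1564 or Mouse1570. Grik4, a high-affinity subunit, ranged from -0.24 to -0.19 on the log2 scale, with no call except in T41B mice given BD10-2 with mouse as a block (-0.31, edgeR adjusted p = 0.0366). Grik5, also a high-affinity subunit and the most abundant kainate subunit per length, had log2 fold changes of 0.01 to 0.16 and was lower in 2 of 14 pairs, also with no call.

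In the fit without the block no NMDA receptor subunit was called in 3 of the 4 comparisons. In T41B mice given BD10-2, Grin3a, a subunit that reduces calcium entry, fell from 31.9 ± 4.35 to 22.2 ± 2.84 CPM (SD, n = 5; log2 fold change -0.52, SE 0.19, edgeR adjusted p = 0.0472), and the groups did not overlap. This call was lost with RLE scaling, no filter, the first library of each label or batch as a covariate, and with any mouse left out except Mouse1592. Its log2 fold changes in the other comparisons were -0.54, -0.38 and -0.74 with edgeR adjusted p of 0.0966, 0.213 and 0.0572. With mouse as a block it was called in vehicle-treated wild-type mice (edgeR adjusted p = 0.0358), and DESeq2 and the fit of only the groups compared called it in wild-type mice given BD10-2. Grin2b, the subunit with slow kinetics, was lower in 13 of 14 pairs and had log2 fold changes of -0.42 to -0.15. It was called in vehicle-treated wild-type mice with mouse as a block (edgeR adjusted p = 0.0117), where the groups did not overlap. Grin1 lay between -0.07 and 0.18 and Grin2a between -0.23 and -0.07. Grin2c, an NMDA subunit, stood at 50.1, 55.8, 55.9 and 57.6 CPM in sham and 63.6, 63.8, 67.4 and 68.7 CPM in stimulated slices of vehicle-treated T41B mice. These groups did not overlap either. The log2 difference was 0.26 (edgeR adjusted p = 0.0819), and 0.27 with mouse as a block (edgeR adjusted p = 0.01). Grin2c was also called there with DESeq2 and when only the groups compared were fitted. Across all genes 11.7% had stimulated values wholly above the sham values in this comparison.

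All 6 metabotropic receptors had log2 fold changes below 0 in each of the 4 comparisons in the fit without the block; with it, Grm7 stood at 0.01 in wild-type mice given BD10-2. Grm2 (ENSMUSG00000023192, chr9:106643095-106656082, minus strand), a presynaptic receptor that restrains glutamate release at mossy fibre terminals, fell in T41B mice. With vehicle it was 43.3, 50.4, 52.6 and 72.7 CPM in sham and 21, 23.8, 31.7 and 35.5 CPM in stimulated slices (log2 fold change -0.97, SE 0.20, edgeR adjusted p = 0.000539). With BD10-2 it was 49.5, 52.7, 53.7, 57.2 and 61.1 CPM in sham and 21.7, 23, 30.8, 31.3 and 48.9 CPM in stimulated slices (log2 fold change -0.81, SE 0.17, edgeR adjusted p = 0.000837). In both comparisons all stimulated slices were below all sham slices. Both calls held with any 1 mouse left out. Without the slices rich in choroid plexus RNA, which in the vehicle group came from Mouse1551 and Mouse1553, the log2 fold change was -0.51 (edgeR adjusted p = 0.235).

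In wild-type mice Grm2 was 50.4, 53.8, 55.7 and 58.4 CPM in sham and 31.8, 32.9, 42.9 and 47.4 CPM in stimulated vehicle slices, again without overlap, but was not called (log2 fold change -0.49, edgeR adjusted p = 0.0932). With BD10-2 the wild-type values were 45.2, 53.2 and 54.1 against 36.3, 42.9 and 51.7 CPM, which overlapped (-0.22, edgeR adjusted p = 0.614). The vehicle difference was called when only the groups compared were fitted. Sham levels of Grm2 thus lay close together in the 4 combinations, with means of 50.8 to 54.8 CPM. Exons of the antisense gene Gm28111 overlap those of Grm2, and the strand setting of the counting is not given in the sources used here.

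Grm8 (ENSMUSG00000024211, chr6:27275119-28135178, minus strand), another presynaptic receptor, had log2 fold changes of -0.65 to -1.02 and was lower in 13 of 14 pairs. In T41B mice given BD10-2 it was 7.01, 8.69, 10.7, 12.1 and 15.7 CPM in sham and 4.36, 5.03, 5.15, 5.90 and 6.21 CPM in stimulated slices, without overlap (log2 fold change -1.02, SE 0.24, edgeR adjusted p = 0.00236). That call held in all alternatives. Among T41B mice on vehicle Grm8 was 6.12, 7.81, 14.7 and 16.4 against 4.73, 5.90, 8.27 and 8.63 CPM, with overlap (edgeR adjusted p = 0.0608). In wild-type mice it was 12.3, 17, 21.3 and 21.8 against 10.5, 10.5, 11.7 and 13.4 CPM with vehicle and 12.3, 13.9 and 20 against 6.37, 8.81 and 11 CPM with BD10-2. These 2 differences were not called (edgeR adjusted p = 0.1 and 0.0909). With mouse as a block Grm8 was called in vehicle-treated wild-type and T41B mice (edgeR adjusted p = 0.0347 and 0.028). With batch as a covariate it was called in all 4 comparisons. Mir592, on the same strand, overlaps its exons. Grm8 is the least abundant member per length, and the within-group spread of its level was among the largest, with a median coefficient of variation of 26.4%.

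Grm7 (ENSMUSG00000056755, chr6:110645581-111567230, plus strand), a low-affinity presynaptic receptor, was called in vehicle-treated wild-type mice, where it was 110.1, 111.8, 113.6 and 127.0 CPM in sham and 73.4, 86.5, 95.1 and 103.0 CPM in stimulated slices. The groups did not overlap (log2 fold change -0.37, SE 0.11, edgeR adjusted p = 0.0216). This call was lost without the filter, when only the groups compared were fitted, and without Mouse1509, Mouse1513 or Mouse1524. In T41B mice Grm7 was 72.1, 92.3, 96.6 and 105.8 against 70.4, 74.7, 76.1 and 89.7 CPM with vehicle (edgeR adjusted p = 0.116). With BD10-2 it was 86.1, 89.3, 90.1, 90.7 and 90.9 against 64.8, 69.5, 70.6, 78.5 and 90.0 CPM (edgeR adjusted p = 0.0506, or 0.0274 with mouse as a block). Exons of the antisense gene Gm20387 overlap Grm7. Grm5, the postsynaptic receptor of the list, was lower in 13 of 14 pairs with log2 fold changes of -0.29 to -0.16 and no call. Grm3, which is also found on astrocytes, and Grm4 were not called, except Grm4 in T41B mice given BD10-2 with mouse as a block (log2 fold change -0.87, edgeR adjusted p = 0.0295) and without Mouse1572.

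Among AMPA receptor auxiliary subunits, Shisa9 (ENSMUSG00000022494, chr16:11984113-12270902, plus strand), which slows recovery of AMPA receptors from desensitization in dentate granule cells, fell in 3 comparisons. With vehicle, the wild-type levels were 50.3, 54.4, 56.5 and 62.3 CPM in sham and 39.6, 41.8, 42.0 and 43.7 CPM in stimulated slices (log2 fold change -0.42, SE 0.11, edgeR adjusted p = 0.014). The T41B levels were 46.5, 52.9, 52.9 and 57.3 against 28.7, 37.9, 39.8 and 40.2 CPM (log2 fold change -0.51, SE 0.11, edgeR adjusted p = 0.00146). Neither pair of groups overlapped. Without the slices rich in choroid plexus RNA the edgeR adjusted p was 0.0576 in wild-type and 0.0952 in T41B mice, and the wild-type call was also lost without Mouse1509 or Mouse1513. In T41B mice given BD10-2 Shisa9 was 47.7, 50.5, 56.0, 56.4 and 57.8 against 31.7, 34.0, 37.0, 43.6 and 49.2 CPM (log2 fold change -0.45, edgeR adjusted p = 0.00134). In wild-type mice given BD10-2 the values were 49.9, 50.3 and 51.0 against 41.9, 43.0 and 52.7 CPM, with no call (edgeR adjusted p = 0.594).

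Cacng3, a transmembrane AMPA receptor regulatory protein (TARP), was called in T41B mice given BD10-2, at 36.6, 39.8, 43.1, 45.0 and 49.6 CPM in sham and 31.7, 31.8, 33.6, 36.0 and 38.1 CPM in stimulated slices (log2 fold change -0.32, SE 0.08, edgeR adjusted p = 0.00518). That call was lost without Mouse1564. With vehicle the T41B levels were 36.1, 40.1, 40.7 and 44.5 against 36.2, 40.0, 43.2 and 47.9 CPM, a log2 fold change of 0.05. Cacng2, the TARP stargazin, was lower in 14 of 14 pairs with log2 fold changes of -0.35 to -0.23. It was not called, except in vehicle-treated wild-type mice and in T41B mice given BD10-2 with mouse as a block (edgeR adjusted p = 0.00788 and 0.0047) or batch as a covariate. Cacng8, the main hippocampal TARP, had log2 fold changes of 0.01 to 0.13 and the cornichon Cnih2 of 0.02 to 0.16, with no call. With mouse as a block Cnih2 was at -0.09 in wild-type mice given BD10-2.

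Of the MAGUK scaffolds, Dlg2 (ENSMUSG00000052572, chr7:90476672-92449247, plus strand) fell in 3 comparisons and was lower in 14 of 14 pairs. Exons of 2 genes on the same strand, Gm45131 and Gm45159, overlap those of Dlg2. T41B mice on vehicle had 366.2, 380.3, 399.4 and 428.4 CPM in sham and 313.7, 314.3, 331.8 and 364.3 CPM in stimulated slices (log2 fold change -0.25, SE 0.08, edgeR adjusted p = 0.0195). With BD10-2 it was 446.1, 453.9 and 481.7 against 360.8, 365.4 and 395.0 CPM in the wild type (log2 fold change -0.30, SE 0.09, edgeR adjusted p = 0.0303). In T41B mice given BD10-2 it was 337.9, 348.6, 373.7, 391.1 and 403.8 against 248.6, 290.8, 293.5, 320.8 and 340.2 CPM (log2 fold change -0.31, SE 0.07, edgeR adjusted p = 0.00113). The wild-type and vehicle T41B groups did not overlap, and those of T41B mice given BD10-2 overlapped by 1 slice on each side. The call in wild-type mice given BD10-2 was lost with any of the 4 mice left out, without the filter, with the first library of each label and with mouse as a block. The vehicle T41B call was lost without the filter, when only the groups compared were fitted, without the choroid-rich slices, and without Mouse1551, Mouse1553 or Mouse1579.

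In vehicle-treated wild-type mice Dlg2 was 446.6, 448.0, 450.7 and 472.5 against 380.6, 391.1, 393.3 and 401.3 CPM. These groups did not overlap, and the edgeR adjusted p was 0.0656, or 0.0189 with mouse as a block. Dlg3 fell in vehicle-treated T41B mice (174.2 ± 25 to 139.0 ± 17.4 CPM, SD, n = 4; edgeR adjusted p = 0.0341), a call lost without the filter, with the first library of each label, when only the groups compared were fitted, without the choroid-rich slices, and without Mouse1510, Mouse1551 or Mouse1553. Dlg4, the most abundant MAGUK of the postsynaptic density, was not called in any comparison: its log2 fold changes were 0.01 to 0.12 (-0.02 in T41B mice given BD10-2 with mouse as a block), and 5 of 14 pairs were lower. Dlg1 lay between -0.16 and -0.01.

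No Shank or Dlgap scaffold, and neither CaMKII gene nor Nrgn, was called after TBS in the fit without the block. Camk2a in vehicle-treated wild-type mice was 3415.1, 3496.2, 3702.7 and 3964.5 CPM in sham and 3154.9, 3382.3, 3663.3 and 4408.0 CPM in stimulated slices. Its log2 fold change was 0.00 (SE 0.13), and it lay between -0.05 and 0.00 in the 4 comparisons. The 95% intervals of these 2 roles reached from -0.54 to 0.54 over the 4 comparisons, so differences within that range could not be resolved for every one of these genes. With vehicle, in T41B mice, Shank1 (log2 fold change 0.23), Shank3 (0.20) and Dlgap2 (0.20) were called higher with mouse as a block (edgeR adjusted p = 0.00919, 0.0138 and 0.0314), and the sham and stimulated groups of Shank1 and Shank3 did not overlap. Dlgap2 was lower in 2 of 14 pairs, Shank3 in 3 and Shank1 in 5.

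The 5′ flanks of Gria4, Grik3 and Grm2 are shown because these members were called in at least 2 TBS comparisons, have 1 start in the RefSeq promoter table (GRCm38.p6) and have no annotated exon in the window. Each is the 250 bases before the RefSeq start, 5′ to 3′ on the gene's strand, and capitals mark the GC box GGGCGG on either strand. Gria4 (chr9:4796235-4796484, minus strand), Grik3 (chr4:125490446-125490695, plus strand) and Grm2 (chr9:106656110-106656359, minus strand) read as follows.
Gria4: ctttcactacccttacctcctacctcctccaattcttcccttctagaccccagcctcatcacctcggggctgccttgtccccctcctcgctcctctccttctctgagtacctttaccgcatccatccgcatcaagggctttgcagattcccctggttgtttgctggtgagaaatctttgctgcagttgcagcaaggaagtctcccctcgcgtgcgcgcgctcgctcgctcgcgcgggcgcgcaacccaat
Grik3: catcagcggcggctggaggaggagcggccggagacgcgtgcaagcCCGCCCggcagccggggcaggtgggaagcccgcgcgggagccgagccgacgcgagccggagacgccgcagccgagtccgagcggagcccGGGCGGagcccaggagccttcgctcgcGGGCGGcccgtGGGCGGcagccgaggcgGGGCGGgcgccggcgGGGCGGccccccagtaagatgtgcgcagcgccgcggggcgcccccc
Grm2: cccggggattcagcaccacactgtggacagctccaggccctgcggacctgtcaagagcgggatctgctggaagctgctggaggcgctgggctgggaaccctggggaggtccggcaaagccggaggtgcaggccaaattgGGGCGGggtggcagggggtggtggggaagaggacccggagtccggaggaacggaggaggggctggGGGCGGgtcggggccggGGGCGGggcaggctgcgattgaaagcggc
Grik3 holds 6 GC boxes and Grm2 holds 3, while the Gria4 window has none. Of all 32851 windows of this length 32.7% hold at least 1, and 16 of the 26 members in the promoter table hold 1 or more in any of their windows. Their GC contents were 82.0% (Grik3), 71.2% (Grm2) and 58.8% (Gria4), against a median of 52.4% over all windows. None of the 3 windows holds TGACGTCA (the CRE, in 1.5% of windows), TGANTCA (AP-1, 6.7%), GCGTGGGCG (EGR, 0.5%), CACGTG (an E-box, 6.0%) or the kappaB motif (0.4%) on either strand. Of the 39 members, 26 are in the table and 19 of them have 1 start.

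Markers of other cells moved with stimulation. The microglial genes Csf1r, Cx3cr1 and C1qa were called lower in 3, 3, 3 and 2 of 3 cases in the order above, with none at 0. Their sum ran from 137.6 to 179.4 CPM in sham and 49.1 to 87.6 CPM in stimulated vehicle wild-type slices, from 276.6 to 528.2 and 134.6 to 190.2 CPM in vehicle T41B slices, from 149.6 to 172.0 and 65.4 to 79.8 CPM in BD10-2 wild-type slices, and from 359.1 to 503.1 and 194.9 to 259.0 CPM in BD10-2 T41B slices. Astrocyte genes (Aldh1l1, Aqp4, Gfap, Slc1a3) were called higher in 2, 2, 0 and 2 of 4. Their sum ran from 848.3 to 1043.3 and 1241.1 to 1559.0 CPM, 1921.0 to 2879.0 and 2520.2 to 3228.9 CPM, 936.5 to 1120.8 and 1162.7 to 1345.3 CPM, and 2201.2 to 3041.7 and 2697.4 to 4502.9 CPM in the same order. Of 5 pan-neuronal markers, 0, 0, 0 and 1 (Snap25) were called lower, with median log2 fold changes of -0.11, -0.24, -0.21 and -0.22, below the members' medians in 3 comparisons. The pan-neuronal sum ran from 2148.4 to 2595.2 and 2034.8 to 2638.7 CPM, 1894.8 to 2609.3 and 1575.6 to 2177.0 CPM, 2049.7 to 2549.2 and 1697.1 to 2246.9 CPM, and 1978.3 to 2197.1 and 1440.7 to 1968.8 CPM. The dentate gyrus markers C1ql2 and Dsp, 2 of 3 listed, were called lower in vehicle-treated T41B mice, where the sum with Prox1 ran from 218.7 to 437.8 CPM in sham and 186.3 to 217.6 CPM in stimulated slices. All 4 choroid plexus genes were called higher in vehicle-treated wild-type mice (median 4.42) and none in the other comparisons. In wild-type mice given BD10-2 all 3 dentate markers had log2 fold changes above 0 (median 0.27), with no call, and the medians were -0.13 and -0.45 in vehicle wild-type and BD10-2 T41B mice. Of 3 CA1 markers, Fibcd1 was called higher in both T41B comparisons (0.43 and 0.38), as was Pecam1 of 3 endothelial markers (1.37 and 0.93). Calb2, listed among 3 thalamic markers, was called lower in both wild-type comparisons (-1.49 and -1.60), and Mog, of 4 oligodendrocyte markers, in vehicle-treated T41B mice (-0.65). Neurod6, 1 of 3 pyramidal and granule cell markers, was called lower in 3 comparisons, with log2 fold changes of -0.60 (vehicle T41B), -0.64 (BD10-2 wild type) and -0.39 (BD10-2 T41B). The sum of the 3 (with Slc17a7 and Neurod2) ran from 1124.9 to 1480.0 and 1022.3 to 1248.6 CPM, 1096.7 to 1231.2 and 924.0 to 1274.7 CPM, 1161.0 to 1334.7 and 988.1 to 1156.5 CPM, and 898.9 to 1247.8 and 778.5 to 1181.6 CPM. Of 3 GABAergic markers, Gad2 was called lower in BD10-2 wild-type mice (-0.53), where the sum ran from 207.7 to 237.3 CPM in sham and 161.7 to 191.7 CPM in stimulated slices. All 3 had log2 fold changes below 0 in each of the 4 comparisons, with medians of -0.29, -0.20, -0.43 and -0.13. None of 3 CA3 markers (Bok, Grp, Spock1) was called by edgeR, and their median log2 fold changes were -0.26, -0.47, -0.67 and -0.34. Both oligodendrocyte precursor markers, Cspg4 and Pdgfra, had summed levels of 81.4 to 108.3 and 65.9 to 83.5 CPM, 75.7 to 97.3 and 53.9 to 79.0 CPM, 89.8 to 93.9 and 65.2 to 74.5 CPM, and 96.1 to 109.9 and 71.4 to 86.1 CPM, and 1, 1, 1 and 2 of 2 were called lower. The part of these cells in the members' differences was not tested. The mitochondrial share of counts ran from 2.74 to 4.35% in sham and 2.91 to 4.88% in stimulated vehicle wild-type libraries. In vehicle T41B libraries it ran from 2.46 to 4.28% and 2.52 to 5.07%. With BD10-2 it ran from 2.84 to 4.38% and 3.07 to 4.84% (wild type) and 2.0 to 4.2% and 2.36 to 5.4% (T41B). Within mice it was mostly higher in the stimulated slice, but not in Mouse1579 (2.73% sham, 2.52% stimulated). Its part was not tested either.

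Whether the response to TBS differs between the genotypes, or between treatments in T41B mice, was tested by 3 interaction terms in the fit without the block. No member was called in any of them (0 of 39 each, against 0.0% of all genes by edgeR). At an unadjusted p under 0.05 there were 0 members for genotype under vehicle, 2 for genotype under BD10-2 and 1 for BD10-2 in T41B mice, and DESeq2 called 0 members and 1, 19 and 1 of all genes. The 2 were Cacng3 (interaction -0.38, 95% interval -0.66 to -0.10, edgeR adjusted p = 0.84) and Grm2 (-0.59, -1.16 to -0.01, edgeR adjusted p = 1). The 1 was again Cacng3 (-0.37, -0.63 to -0.12, edgeR adjusted p = 1). That fit leaves the slices of a mouse unpaired, and interaction terms with mouse as a block are not given here. In the unpaired fit the falls of Grik2, Grik3 and Grm2 called in T41B mice are thus not shown to differ from those in wild-type mice.

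T41B mice were compared with wild-type mice in each combination of treatment and stimulation, which asks how the amyloid transgene goes with transcript levels. The sham and stimulated comparisons under 1 treatment share mice. All members called with every mouse included were lower in T41B mice. In vehicle-treated sham slices 3 of 39 were lower (7.7%, against 1.24% of all genes), namely Gria4, Gria3 and Cacng3. In vehicle-treated stimulated slices edgeR called 0 of 39 (against 1.05% of all genes lower and 4.74% higher), with 9 lower and 1 higher at an unadjusted p under 0.05 and 1 call by DESeq2 (Grik1). With BD10-2, 1 of 39 was lower in sham slices (2.6%, against 1.14%), namely Dlg2. In BD10-2-treated stimulated slices 5 of 39 were lower (12.8%, against 2.36%), namely Gria3, Grik1, Grm7, Cacng3 and Dlg2. No member was called higher, where 5.0%, 4.31% and 8.19% of all genes were in the 3 comparisons other than the vehicle stimulated one; 1, 0 and 0 members there were higher at an unadjusted p under 0.05, and 0 by DESeq2.

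The members' median log2 fold changes were -0.15, -0.10, -0.16 and -0.22 in these 4 comparisons, and those of all genes 0.00, -0.03, 0.01 and -0.02. Log2 fold changes were below 0 for 31, 26, 30 and 36 members, where 49.7%, 54.6%, 48.8% and 52.9% of all genes were below 0. All T41B slices lay below all wild-type slices for 9, 4, 8 and 7 members (3.33%, 4.31%, 7.18% and 5.47% of all genes) and above them for 0 members in each (6.25%, 6.78%, 10.5% and 9.3%). In either direction edgeR called 6.24%, 5.79%, 5.46% and 10.6% of all genes, and an unadjusted p under 0.05 was reached by 14, 10, 9 and 16 members, where 21.4%, 17.4%, 18.9% and 23.1% of all genes reached it. The vehicle sham calls are fragile: with batch as a covariate, in a fit of only these groups, without the slices rich in choroid plexus RNA, or without Mouse1509, Mouse1551 or Mouse1553, 0 members were called there. Without Mouse1513 (Cacng3), without Mouse1522 (Gria4) or without the filter (Gria4), 1 was called, and without Mouse1510, 8 were. In vehicle-treated stimulated slices 1 was called lower without Mouse1510 (Dlg2) or Mouse1513 (Grik1) and 3 without Mouse1579 (Gria4, Grik1 and Grik3). Without Mouse1524, 1 was called higher, the NMDA receptor subunit Grin2c, at 63.6, 63.8, 67.4 and 68.7 CPM in T41B and 47.3, 49.0, 51.5 and 70.1 CPM in all 4 wild-type slices. In BD10-2-treated sham slices 0 were called without Mouse1571 or Mouse1590 and 2 without Mouse1563. In BD10-2-treated stimulated slices 2 were called without Mouse1571 and 3 without Mouse1565.

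**Figure D4:**
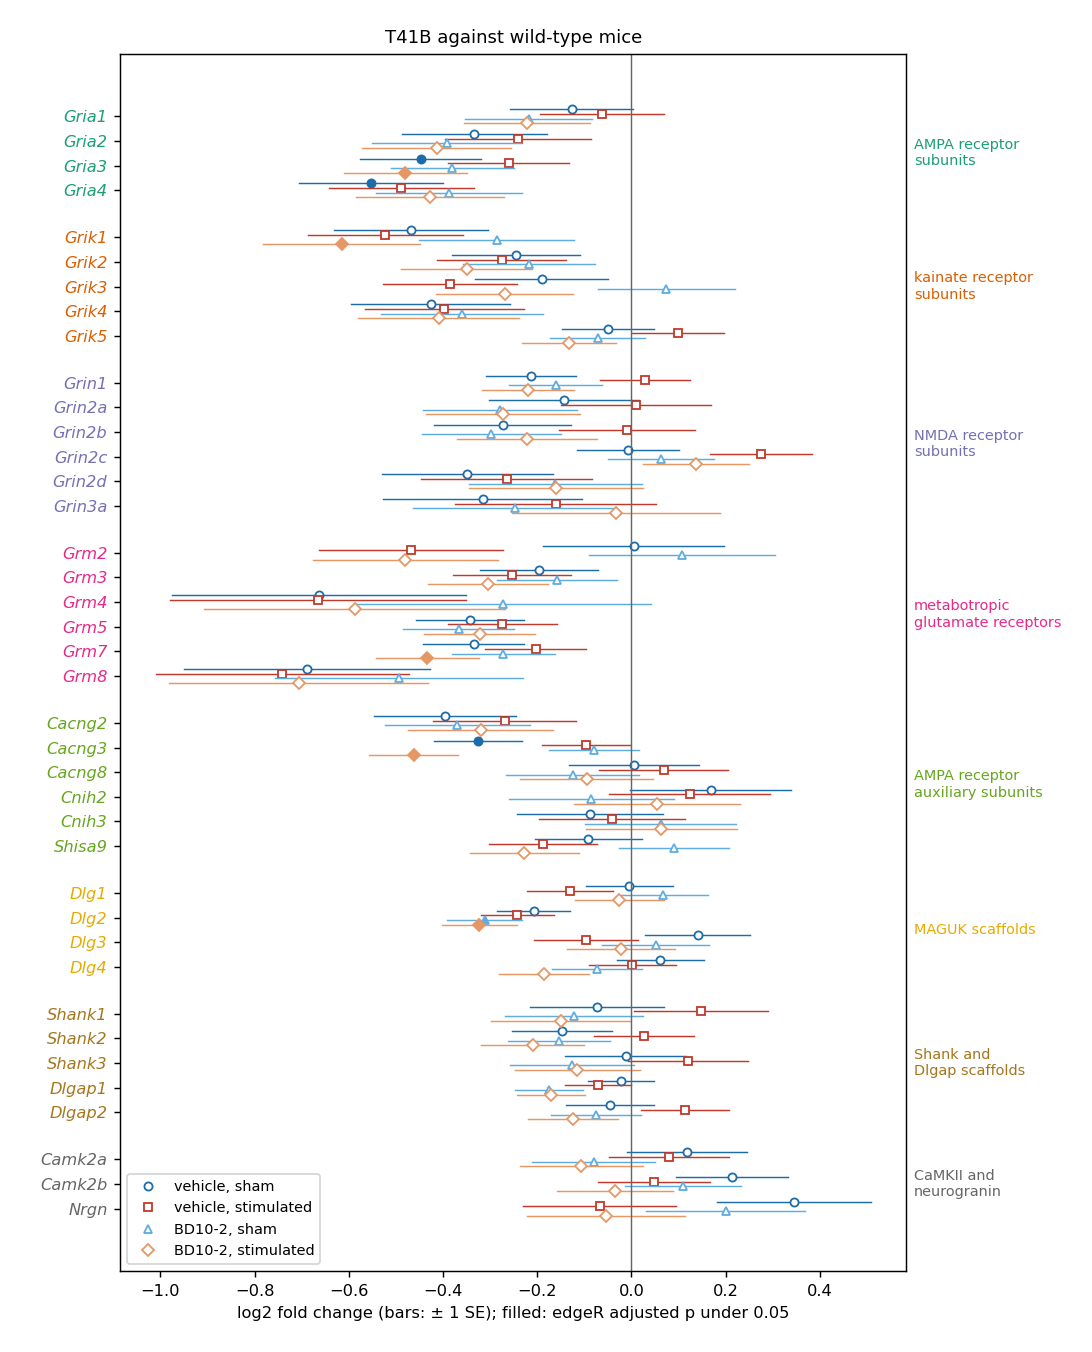
Log2 fold change of T41B against wild-type mice (x axis) for the 39 genes (y axis, coloured by role) under each treatment and stimulation; bars are 1 SE and filled points are called at an edgeR adjusted p under 0.05. Most points lie left of 0 in every role except that of CaMKII and Nrgn, and no filled point lies right of 0.

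Of the AMPA receptor subunits, Gria3 (ENSMUSG00000001986, chrX:41400854-41678601, plus strand), a subunit of hippocampal receptors formed with Gria2, was lower in T41B mice in 2 comparisons. Exons of Gm22413, on the same strand, overlap those of Gria3. In vehicle-treated sham slices it was 116.6, 171.6, 186.2 and 208.8 CPM in T41B and 201.7, 230.4, 236.0 and 263.4 CPM in wild-type mice. The highest T41B slice lay above the lowest wild-type slice (log2 fold change -0.45, SE 0.13, edgeR adjusted p = 0.032). In BD10-2-treated stimulated slices it was 124.4, 151.5, 153.0, 160.3 and 167.5 CPM against 198.7, 212.9 and 221.8 CPM, without overlap (log2 fold change -0.48, SE 0.13, edgeR adjusted p = 0.0141). This second call was lost without Mouse1564, Mouse1565 or Mouse1571. In the other comparisons Gria3 was 154.2, 155.8, 159.5 and 188.2 against 147.9, 207.9, 208.1 and 224.2 CPM (vehicle, stimulated), and 172.2, 175.0, 176.5, 186.5 and 187.0 against 219.3, 230.7 and 251.1 CPM (BD10-2, sham). Neither was called (edgeR adjusted p = 0.289 and 0.0874), although the latter groups did not overlap and Gria3 was called there with the first library of each label and when only the groups compared were fitted.

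Gria4 was called in vehicle-treated sham slices, where the 4 T41B slices (28.7 to 53.8 CPM) lay below the 4 wild-type slices (59.0 to 65.2 CPM; log2 fold change -0.55, SE 0.15, edgeR adjusted p = 0.0254). In the other comparisons its log2 fold changes were -0.49, -0.39 and -0.43 (edgeR adjusted p = 0.0576, 0.156 and 0.0817). Gria4 was called in vehicle-treated stimulated slices when only the groups compared were fitted or without Mouse1579, and in BD10-2-treated stimulated slices without Mouse1565 or Mouse1592. Gria2 lay between -0.41 and -0.24 and Gria1 between -0.22 and -0.06; neither was called, except Gria2 in BD10-2-treated sham slices when only the groups compared were fitted. Within the batches that hold both genotypes, the vehicle sham differences, on the log2(CPM + 1) scale, were -0.13 in batch A and -0.41 in batch C for Gria4 and -0.175 and -0.115 for Gria3, with 1 mouse of each genotype per batch.

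Grik1 (ENSMUSG00000022935, chr16:87895900-88290265, minus strand), a kainate subunit of interneurons, was called in BD10-2-treated stimulated slices, at 6.13, 7.37, 8.13, 9.19 and 9.42 CPM in T41B and 10.6, 12.9 and 13.6 CPM in wild-type mice. The groups did not overlap (log2 fold change -0.62, SE 0.17, edgeR adjusted p = 0.0138), and the call was lost without Mouse1571. In vehicle-treated mice Grik1 was 7.06, 10.9, 11.3 and 12.4 against 12.4, 13.1, 14.2 and 17.7 CPM in sham slices and 7.49, 8.69, 9.45 and 11.5 against 10.6, 12.7, 13.1 and 17 CPM in stimulated slices (edgeR adjusted p = 0.0868 and 0.0566). In BD10-2-treated sham slices it was 10.1, 10.3, 11, 11.2 and 12.6 against 12.4, 13.3 and 14.8 CPM (edgeR adjusted p = 0.355). Grik1 was also called in vehicle-treated stimulated slices with DESeq2 and without Mouse1513 or Mouse1579, and in vehicle-treated sham slices without Mouse1510. The other kainate subunits were not called, except Grik4 in BD10-2-treated sham slices when only the groups compared were fitted and Grik3 in vehicle-treated stimulated slices without Mouse1579. Grik4 lay between -0.43 and -0.36 on the log2 scale, Grik2 between -0.35 and -0.22, Grik3 between -0.38 and 0.07, and Grik5 between -0.13 and 0.10.

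Grm7 was called in BD10-2-treated stimulated slices, where all 5 T41B slices (64.8 to 90.0 CPM) lay below the wild-type slices at 90.5, 105.6 and 106.8 CPM (log2 fold change -0.43, SE 0.11, edgeR adjusted p = 0.00784). This call was lost when only the groups compared were fitted and without Mouse1565 or Mouse1571. In BD10-2-treated sham slices T41B mice (86.1 to 90.9 CPM) also lay below wild-type mice at 105.5, 105.8 and 112.6 CPM, without a call (edgeR adjusted p = 0.159) except when only the groups compared were fitted. In vehicle-treated sham slices Grm7 was called with DESeq2 and without Mouse1510 or Mouse1524. Grm8 had the largest log2 fold changes of the metabotropic receptors, -0.74 to -0.49, and Grm4 lay between -0.67 and -0.27. Neither was called, although Grm8 was called in both BD10-2 comparisons with batch as a covariate, in the stimulated one when only the groups compared were fitted, and in vehicle-treated sham slices without Mouse1510. Grm5 lay between -0.37 and -0.27 with edgeR adjusted p of 0.064 to 0.194, and its groups did not overlap in 3 of the 4 comparisons. DESeq2 called Grm5 in both sham comparisons. It was also called in BD10-2-treated sham slices with the first library of each label or without Mouse1563, and in vehicle-treated ones without Mouse1510.

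Cacng3 (ENSMUSG00000066189, chr7:122670492-122769393, plus strand) was called in 2 genotype comparisons. Within batches, its vehicle sham difference was -0.349 in batch A and -0.128 in batch C on the log2(CPM + 1) scale, with 1 mouse of each genotype. In vehicle-treated sham slices it was 36.1, 40.1, 40.7 and 44.5 CPM in T41B and 47.7, 48.7, 51.3 and 54.6 CPM in the wild type (log2 fold change -0.33, SE 0.09, edgeR adjusted p = 0.0321). In BD10-2-treated stimulated slices it was 31.7, 31.8, 33.6, 36.0 and 38.1 against 44.2, 45.9 and 51.4 CPM (log2 fold change -0.46, SE 0.10, edgeR adjusted p = 0.00105). Neither pair overlapped, and the second call held in all alternatives and with any mouse left out. In vehicle-treated stimulated slices it was 36.2, 40.0, 43.2 and 47.9 against 40.6, 44.5, 45.1 and 48.7 CPM, and in BD10-2-treated sham slices 36.6, 39.8, 43.1, 45.0 and 49.6 against 42.5, 44.3 and 48.8 CPM. These groups overlapped, with log2 fold changes of -0.10 and -0.08.

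Of the MAGUK scaffolds, Dlg2 was called in both BD10-2 genotype comparisons. In BD10-2-treated sham slices the 5 T41B values (337.9 to 403.8 CPM) lay below the 3 wild-type values (446.1 to 481.7 CPM; log2 fold change -0.31, SE 0.08, edgeR adjusted p = 0.0147). In BD10-2-treated stimulated slices the T41B values (248.6 to 340.2 CPM) lay below the wild-type values (360.8 to 395.0 CPM; log2 fold change -0.32, SE 0.08, edgeR adjusted p = 0.00609). In vehicle-treated mice the groups did not overlap either, with log2 fold changes of -0.21 in sham and -0.24 in stimulated slices and edgeR adjusted p of 0.11 and 0.0609. The sham call was lost without Mouse1571 or Mouse1590, and the stimulated one without Mouse1565 and when only the groups compared were fitted. Within batch D the BD10-2 sham difference was -0.30, and within batch I it was -0.41 in sham and -0.305 in stimulated slices, on the log2(CPM + 1) scale.

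Within batch I, which holds 2 stimulated BD10-2 slices of each genotype, the differences of the other members called in that comparison were also below 0, at -0.51 for Gria3, -0.42 for Grik1, -0.52 for Grm7 and -0.40 for Cacng3 on the log2(CPM + 1) scale. Dlg4, the Shank genes, Camk2a, Camk2b and Nrgn were not called in any genotype comparison. Dlg4 in vehicle-treated sham slices was 640.1, 641.3, 746.1 and 750.9 CPM in T41B and 628.3, 647.3, 660.9 and 726.3 CPM in wild-type mice, with overlap. Nrgn reached 1026.7 CPM in 1 vehicle-treated T41B sham slice, in a group of 773.5 ± 184.9 CPM (SD, n = 4), and the wild-type group stood at 608.9 ± 56.3 CPM (SD, n = 4; log2 fold change 0.35, edgeR adjusted p = 0.215).

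**Figure D5:**
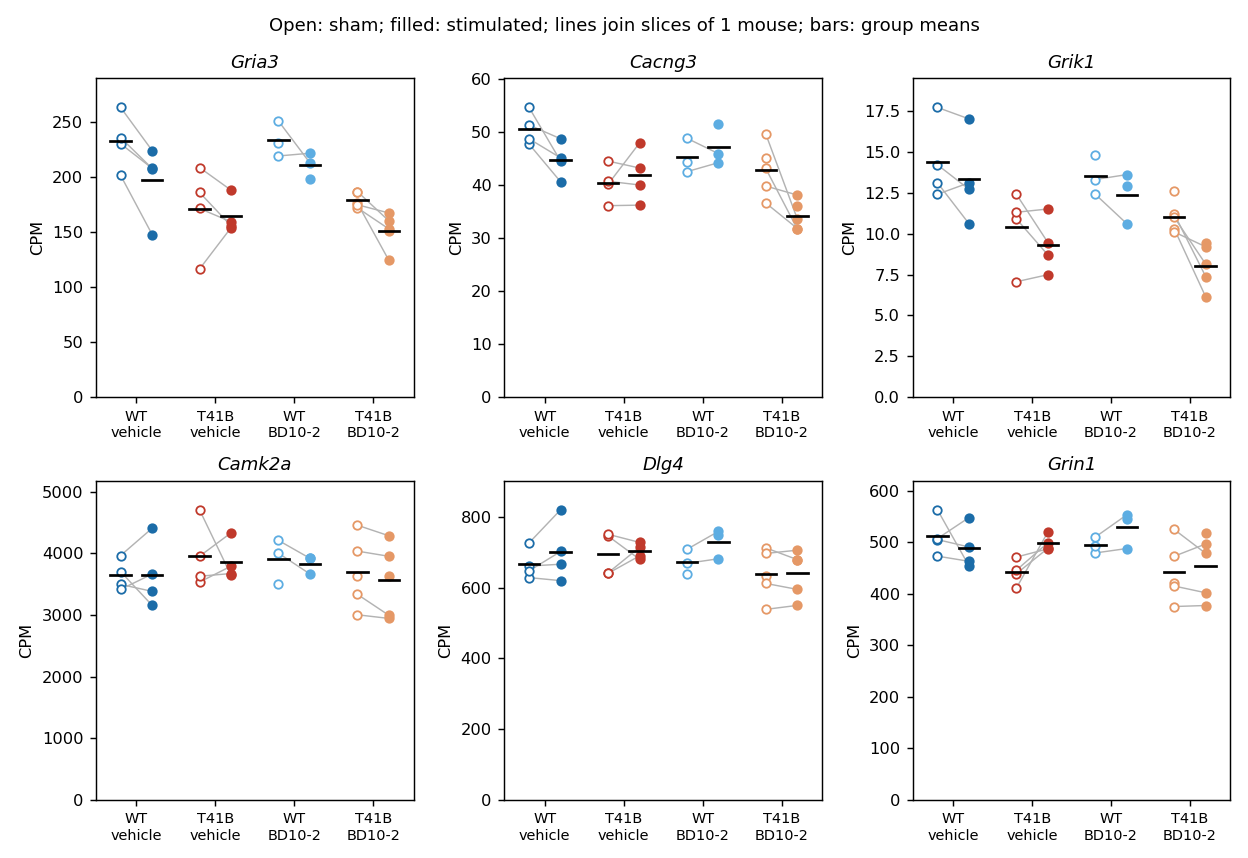
Level in CPM (y axis, from 0) of Gria3, Cacng3, Grik1, Camk2a, Dlg4 and Grin1 in each mouse, by genotype and treatment (x axis); open points are sham and filled points stimulated slices, lines join slices of 1 mouse, and bars are group means. For Gria3, Cacng3 and Grik1 the stimulated T41B slices given BD10-2 lie below the wild-type ones, while the groups overlap for Camk2a and Dlg4.

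Marker levels differed between the genotypes as well. The 3 microglial genes were called higher in T41B mice in 3, 2, 3 and 3 of 3 cases and the 4 astrocyte genes in 2, 2, 2 and 4 of 4, with the sums given above. Of 3 GABAergic markers (Gad1, Gad2, Slc32a1), 0, 1, 2 and 0 were called lower. Their sum ran from 155.3 to 188.9 CPM in T41B and 191.8 to 260.0 CPM in wild-type mice (vehicle, sham), from 124.1 to 169.5 and 175.4 to 229.7 CPM (vehicle, stimulated), from 143.0 to 166.8 and 207.7 to 237.3 CPM (BD10-2, sham), and from 117.8 to 179.0 and 161.7 to 191.7 CPM (BD10-2, stimulated). The first 3 pairs of ranges did not overlap. Of 5 pan-neuronal markers, 0, 1 (Snap25), 0 and 0 were called lower. Neurod6 was called lower in BD10-2-treated sham slices (log2 fold change -0.51, edgeR adjusted p = 0.0271), the 1 call among 3 pyramidal and granule cell markers. No CA3 marker was called, and the medians of the 3 were -0.54, -0.47, -0.40 and -0.18, with sums of 117.3 to 264.4 CPM in T41B and 217.8 to 340.9 CPM in wild-type mice (vehicle, sham), 119.8 to 200.5 and 182.7 to 244.2 CPM (vehicle, stimulated), 161.7 to 210.2 and 233.0 to 310.3 CPM (BD10-2, sham), and 105.8 to 184.0 and 136.6 to 195.8 CPM (BD10-2, stimulated). The 3 dentate markers had medians of 0.42, -0.07, 0.35 and -0.19 with no call, and Prkcd, listed among 3 thalamic markers, was called higher in vehicle-treated sham slices (0.68). The choroid plexus gene Ttr was called higher there (8.53, edgeR adjusted p = 0.0313), with a summed level of the 4 choroid plexus genes of 15.8 to 522.2 CPM in T41B and 14.9 to 20 CPM in wild-type mice. Folr1 was called lower in vehicle-treated stimulated slices (-2.80, edgeR adjusted p = 0.0377), where that sum was 17.1 to 290.8 and 13.3 to 1187.4 CPM. Cspg4, an oligodendrocyte precursor marker, was called higher in BD10-2-treated stimulated slices (0.51, edgeR adjusted p = 0.0144). No marker of these lists was at 0 in every slice of a group, and the part of these cells in the members' differences was not tested.

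BD10-2 was compared with vehicle within each genotype and stimulation. No member was called in any of the 4 comparisons (0 of 39 each), and edgeR called 0.0% of all genes. Unadjusted p under 0.05 was reached by 0, 0, 0 and 1 members, and DESeq2 called 0 members and 0, 23, 0 and 0 of all genes. The 1 was Cacng3 in stimulated T41B slices, at 34.2 ± 2.78 CPM with BD10-2 (SD, n = 5) against 41.8 ± 4.97 CPM with vehicle (SD, n = 4; log2 fold change -0.29, 95% interval -0.47 to -0.11, edgeR adjusted p = 1). The median half-width of the members' 95% intervals, which are not adjusted, was 0.25 to 0.29 on the log2 scale. Differences below that size could not be resolved for most members, and larger ones can also miss the adjusted threshold. In simulated counts edgeR called 16% of genes changed by 0.5 on the log2 scale in wild-type sham slices and 19.5% in T41B sham slices. At a change of 1 it called 62% and 67.5%. Mice on vehicle and mice on BD10-2 were never in the same one of the 8 batches, and the 2 factors cannot be told apart.

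Ratios of paired subunits were compared within slices, since they do not depend on library size. They are ratios of counts, not corrected for gene length, so their values are not ratios of transcript numbers. The 4 ratios in 4 TBS and 4 genotype comparisons gave 32 exact two-sided permutation tests, which treat the sham and stimulated slices of a mouse as unpaired, and none passed after adjustment (smallest adjusted p = 0.381). The ratio of Grin2a to Grin2b, which rises as NMDA receptors mature, was -0.584 ± 0.055 in stimulated and -0.784 ± 0.07 in sham vehicle wild-type slices on the log2 scale (SD, n = 4; exact permutation p = 0.0286, the smallest that 4 against 4 allows). It was higher in the stimulated slice of all 4 mice (paired exact sign-flip p = 0.125, the smallest that 4 pairs allow). The ratio of Camk2a to Camk2b was 2.094 ± 0.056 in stimulated and 1.91 ± 0.075 in sham vehicle T41B slices (SD, n = 4; exact permutation p = 0.0286), higher in 4 of 4 pairs (paired exact sign-flip p = 0.125). It was 1.911 ± 0.092 in T41B (SD, n = 5) and 2.099 ± 0.032 in wild-type sham slices (SD, n = 3) given BD10-2 (exact permutation p = 0.0357).

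Of 38 further genes of the same synapses that were listed beside the members, 36 could be tested. After TBS 0 were called higher and 2 lower in vehicle-treated wild-type mice (Gsg1l, Nlgn3), and 3 higher and 2 lower in vehicle-treated T41B mice. With BD10-2, 0 were higher and 1 lower in wild-type mice and 2 higher and 3 lower in T41B mice. Cnih1, a cornichon, was lower in 3 comparisons, with log2 fold changes of -0.27, -0.34 and -0.26 (edgeR adjusted p = 0.0375, 0.0427 and 0.0213). The kinase gene Camk2d (0.57 with vehicle, 0.44 with BD10-2) and the synaptic adhesion gene Lrrtm2 (0.41 and 0.34) were higher in T41B mice under both treatments. Between genotypes 0 of 36 were called higher and 1, 0, 1 and 1 lower, namely Nlgn1 (-0.40), Homer1 (-0.53) and Lrrc7 (-0.28).

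Level and gene length of the members that were called are given here as a description, and the ranges overlap widely with those of the other members. The 12 members called in at least 1 TBS comparison had a median level of 10.3 CPM per kb in vehicle-treated wild-type sham slices (1.83 to 27.9), and the other 27 had 47.5 (1.88 to 488.2). Their genes spanned a median of 332.6 kb (13.0 to 1972.6), against 108.0 kb (5.7 to 852.3). The 6 members called between genotypes had a median span of 386.4 kb and the other 33 of 121.4 kb. The shortest gene among the called members was Grm2, at 13.0 kb. In all, 26 of the 39 members were called in no comparison.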

How the data were processed

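The authors deposited RSEM expected counts (estimated read counts per gene, not scaled). The submitters' processing notes name cutadapt 1.8.1, STAR 2.7.6a, RSEM 1.3.1, featureCounts 1.6, SAMtools 1.11 and GRCm38.p6; the annotation release and strand setting are not given in the sources used here. Groups, mice and batches came from the labels. In 4 cases 2 libraries carried equal labels and were summed, which gave 32 samples. The labels do not say whether such a pair comes from 1 slice or 2. These pairs differed by a median of 0.09 to 0.30 on the log2 scale over the members. The largest difference of a member in a pair ran from 0.38 to 1.36, the latter for Grm4 in a wild-type sham pair given BD10-2. Counts were rounded and filtered (filterByExpr, minimum count 10), scaled by TMM and tested with edgeR 4.0.16 (quasi-likelihood F test, 8 groups, no covariate, Benjamini-Hochberg adjustment over all genes of a comparison). CPM use the TMM-scaled library size; lengths and gene positions are from GENCODE M21. Slices of 1 mouse are paired because they come from the same animal: deviations from group means correlated with a mean r of 0.29 within mice and -0.08 between mice. Alternatives were RLE scaling, DESeq2 1.42.0, no filter, other fits, 1 library per label and leaving out each mouse. Values with statistics in every sample are given for up to 3 members per direction and comparison, taken by the size of the log2 fold change from the called members of at least 1 CPM on average, which gave 10 members; others named were chosen after their values were seen. The procedure was tested on simulated data. The members and lists were chosen with earlier results of these data known. A further microglial marker and a further pyramidal and granule cell marker of the lists are not reported here.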

Additional observations from a re-analysis of the deposited data

Results flagged for a closer look

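Of 60 groups of 4 or 5 slices examined for the named members, 2 held a slice that stood apart; chance gives about 1 in 20. Dlg2 in sham slices of vehicle-treated wild-type mice was 472.5 CPM in Mouse1513, and the nearest of the other 3 values was 450.7 CPM. Gria3 in stimulated slices of vehicle-treated T41B mice was 188.2 CPM in Mouse1510, and the nearest of the other 3 was 159.5 CPM.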

How the results depend on the processing

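None of the calls followed for the 10 members with full values changed direction under the alternatives tried. Log2 fold changes near 0 of members not called did change sign with mouse as a block, for example Grm7 (-0.10 to 0.01), Cnih2 (0.02 to -0.09) and Cacng3 (0.06 to -0.02) in wild-type mice given BD10-2 and Dlg4 (0.01 to -0.02), Grin1 (0.04 to -0.03), Shank1 (0.09 to -0.04) and Shank3 (0.11 to -0.01) in T41B mice given BD10-2. After TBS in vehicle-treated wild-type mice, 3 became 6 with DESeq2, 8 with batch as a covariate, 10 with mouse as a block and 5 without the slices rich in choroid plexus RNA (an alternative chosen after seeing the data), and it ran from 0 to 3 with 1 mouse left out. In vehicle-treated T41B mice, 7 became 3 when only the groups compared were fitted, 12 with mouse as a block and 0 without the choroid-rich slices, where 2 mice were left, and ran from 3 to 5 with 1 mouse left out. In wild-type mice given BD10-2, 2 became 1 without the filter, 0 with the first library of each label and 0 with mouse as a block, and ran from 0 to 1. In T41B mice given BD10-2, 10 ran from 6 to 11, and mouse as a block gave 14. Between genotypes, the 3 calls in vehicle-treated sham slices became 1 without the filter, 5 with DESeq2, and 0 with only the groups compared, with batch as a covariate or without the choroid-rich slices, and ran from 0 to 8. The 0 in vehicle-treated stimulated slices became 1 with DESeq2 and 1 with only the groups compared, and ran from 0 to 3. With BD10-2, the 1 in sham slices became 3 with the first library, 2 with DESeq2, 5 with only the groups compared and 2 with batch as a covariate, and ran from 0 to 2, while the 5 in stimulated slices ran from 2 to 7. Fewer samples enter the fits that leave out mice or slices or use only the groups compared; the cause of the other changes was not tested. How far depth limits the calls was not tested; Grm8, Grin2d and Grik1, at 1.83 to 2.14 CPM per kb, have the lowest levels.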
